A study of Mus musculus with 6 samples.

Results

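The genes of the mouse major histocompatibility complex (MHC, called H2 in the mouse) and of the machinery that loads peptides onto its products were examined in RNA from vagal jugular-nodose ganglia, where the cell bodies of vagal sensory neurons lie. Members were taken by symbol. They were every H2- gene apart from symbols ending in -ps, together with B2m, Cd74, Ciita, Tap1, Tap2, Tapbp, Nlrc5, Psmb8, Psmb9 and Psmb10, and they came to 47 of 32719 genes. Class I held 27 of them (26 heavy chain genes and B2m) and class II held 11, with Cd74 counted there. A further 3 were peptide loading genes, 3 were immunoproteasome subunits, 2 were regulators, and H2-Ke6 was set apart because it encodes a steroid dehydrogenase that lies in the MHC region and presents no antigen. On the GENCODE M21 annotation, 42 members lay on chromosome 17.

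The 3 control and 3 treated libraries came from male wild-type C57BL/6J mice. All mice carried a subcutaneous osmotic pump for 2 weeks. The pump held PBS alone in controls, and in the treated group it also delivered S961, a peptide that blocks the insulin receptor, at 10 nmol per week. The treatment field names S961 for every library, so the control group rests on the sample titles and the protocol. Nothing in the labels says that replicates are different animals, and p-values therefore measure only the spread between these samples. The tissue field reads spinal cord whereas the cell field names the ganglia. P2rx2, an ATP-gated channel of nodose neurons, was present in controls at 206 ± 1.12 CPM (SD, n = 3; CPM is the count scaled to a common library size after TMM adjustment) and stood at 139.5 ± 50.8 CPM after treatment.

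MHC class I molecules sit on nearly all nucleated cells and show peptides cut from proteins of the cell's own interior to CD8 T cells. Proteasomes cut these peptides, the TAP transporter carries them into the endoplasmic reticulum, and tapasin helps to fit them onto a heavy chain paired with beta-2-microglobulin. MHC class II molecules are made mainly by macrophages, dendritic cells and B cells and show peptides from engulfed material to CD4 T cells. The invariant chain Cd74 guards the class II groove until H2-DM exchanges its remnant for peptide. The coactivator Ciita drives class II transcription and Nlrc5 plays the like role for class I. In resting nervous tissue class II is known chiefly from resident macrophages, while neurons show little class I at rest.

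Proximal promoters of class I and class II genes are printed here because elements known to control the transcription of such genes lie in stretches of this kind. All are from RefSeq on GRCm38.p6 and run 5′ to 3′ on the gene's own strand, from 205 to 6 bases before the annotated start; for H2-Eb1 the printed stretch begins 145 bases before it. Capitals mark matches, on either strand, to 5 letter patterns chosen with the sequences in view. These were CCAAT (the CCAAT box, ATTGG on the other strand), GGGGATTCC (a kappaB site), GAAANNGAA (the core of an interferon-stimulated response element), CTAGNAAC (the core of an X box) and TGACGTCA (a cyclic AMP response element), and no 2 of the printed matches overlap.
H2-Aa, chr17:34287829-34288028, minus strand: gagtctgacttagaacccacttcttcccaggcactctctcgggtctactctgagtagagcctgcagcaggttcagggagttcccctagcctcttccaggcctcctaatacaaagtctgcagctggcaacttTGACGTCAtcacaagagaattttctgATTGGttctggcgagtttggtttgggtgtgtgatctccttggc
H2-Eb1, chr17:34305722-34305861, plus strand: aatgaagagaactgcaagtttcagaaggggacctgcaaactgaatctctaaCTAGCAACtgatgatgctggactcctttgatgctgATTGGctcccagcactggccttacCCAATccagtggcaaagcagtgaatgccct
H2-K1, chr17:34000353-34000552, minus strand: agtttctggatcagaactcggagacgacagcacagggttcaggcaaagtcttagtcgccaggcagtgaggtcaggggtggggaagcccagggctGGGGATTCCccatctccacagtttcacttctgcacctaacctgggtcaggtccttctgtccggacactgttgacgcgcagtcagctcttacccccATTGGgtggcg
B2m, chr2:122147482-122147681, plus strand: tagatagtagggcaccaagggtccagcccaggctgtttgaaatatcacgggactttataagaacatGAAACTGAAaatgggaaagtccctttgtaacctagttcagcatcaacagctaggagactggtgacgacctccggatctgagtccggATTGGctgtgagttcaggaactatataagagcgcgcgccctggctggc
H2-Q10, chr17:35469884-35470083, plus strand: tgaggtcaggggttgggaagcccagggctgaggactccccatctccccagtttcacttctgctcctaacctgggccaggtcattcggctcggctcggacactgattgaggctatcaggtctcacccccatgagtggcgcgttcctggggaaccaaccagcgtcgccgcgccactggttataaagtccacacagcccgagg

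The table of promoters held 37 members, among them 23 class I and 8 class II genes. Over windows of 200 bases, CCAAT was found in 20 of the 23 class I and 8 of the 8 class II genes, against 29.4% of all 32851 promoters. GGGGATTCC occurred in 4 class I genes (H2-D1, H2-K1, H2-Q6 and H2-Q7) and in 0 class II genes, against 0.146% of all. CTAGNAAC occurred in 3 class II genes (H2-DMb1, H2-Eb1 and H2-Ob) and in 1 class I gene, H2-M2, against 2.47%. GAAANNGAA was in B2m, H2-T22 and H2-T23, against 5.57%, and TGACGTCA was in H2-Aa alone of these genes, against 1.45%. In H2-Eb1 the X box core began 94 bases before the start with ATTGG after it, 59 bases before the start. In H2-Aa, TGACGTCA began 74 bases before the start and ATTGG 48 bases before it. The H2-Q10 window held 0 matches to these patterns. The H2-K1 and H2-Q10 windows both hold agtttcacttct. On the other strand this stretch has the letter groups of GAAANNGAA in the reverse order, so it was not marked. Each pattern fixes the order and spacing of its letters, and other forms of the elements were not searched. A missing match therefore does not show that a promoter lacks an element of that kind. A match is a description of the letters and was not tested for binding.

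The libraries held 12898607 to 33522486 gene counts. Treated replicate 3 was the smallest, and it stood apart from the rest. Over the 16019 genes tested, its log2 levels had correlations of 0.919 to 0.936 with the other 5 libraries, against 0.971 to 0.986 among those 5 (across genes, which are not independent replicates). Fold changes of the members are given with and without it. With edgeR at an adjusted p of 0.05, 0% of all genes and 0 of the 29 tested members passed. An unadjusted p under 0.05 was reached by 6.67% of all genes in either direction and by 3 members, all 3 higher in treated, where the background was 4% for higher and 2.67% for lower. DESeq2 called 0.567% of its 15685 genes, and among members it called H2-Q10.

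Of the 47 members, 29 passed the filter on low counts and were tested, and 27 reached 1 CPM on average over the 6 libraries. A member can pass that filter through the group in which it is high. Of the tested members 23 had a log2 fold change above 0, where 52.8% of all genes did, and their median was 0.30 against 0.016 over all genes. Without treated replicate 3 the number above 0 was 17 and the median 0.062, against 0.0032 over all genes. Per kilobase of annotated exon, B2m had the highest level of the members in controls (73.6 CPM per kb), followed by H2-D1 (42.4), H2-K1 (21.01), Cd74 (19.7) and Tapbp (18.2). The class II chains stood below them at 7.04 for H2-Eb1, 6.87 for H2-Ab1 and 2.94 for H2-Aa, in the same unit.

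**Figure D1:**
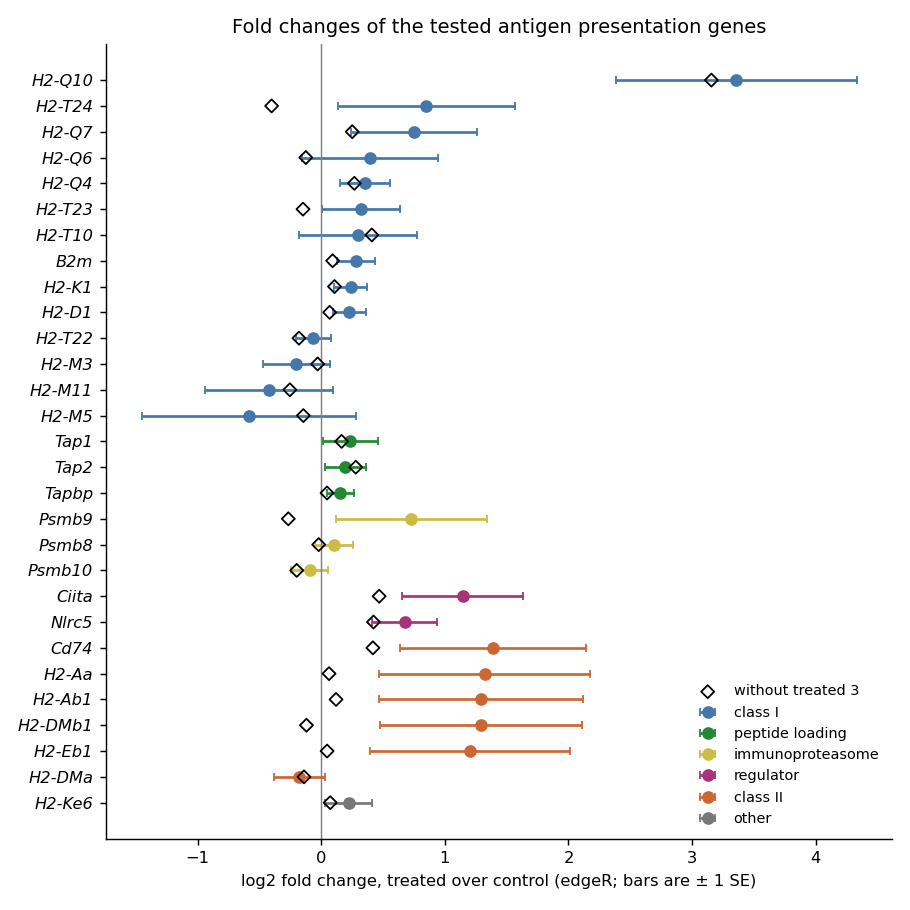
Log2 fold change (treated over control, edgeR) of the 29 tested members with bars of 1 SE, coloured by role; open diamonds give the value without treated replicate 3. The class II genes other than H2-DMa sit between 1.21 and 1.39 with all libraries and move to between -0.12 and 0.42 without that library, whereas H2-Q10 stays at 3.16.

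The tested class II genes other than H2-DMa were highest in treated replicate 3. In the other treated libraries they lay inside the control range or near its ends. Of the 6 tested genes 5 had positive log2 fold changes, the median over the 6 was 1.29 with all libraries and 0.054 without treated replicate 3, and 0 passed the edgeR threshold. Cd74, the invariant chain, was at 28.2, 19.2 and 51.9 CPM in control replicates 1, 2 and 3 and at 32.8, 54.8 and 173.0 CPM in the treated ones. The groups overlapped, since treated replicate 1 lay below control replicate 3. Its log2 fold change was 1.39 ± 0.75 (SE; edgeR adjusted p = 0.742), and 0.42 without treated replicate 3. In bulk RNA a larger number of cells of a type and more RNA per cell cannot be told apart, here and for every gene that follows.

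The alpha and beta chains were likewise highest in treated replicate 3. H2-Ab1 (chromosome 17, 34257689 to 34269419, plus strand, GRCm38), the beta chain of I-A, stood at 14.4, 10.7 and 27.9 CPM in controls and 14.4, 23.5 and 92.4 CPM in treated libraries. Treated replicate 3 was 3.31 times the next highest library, control replicate 3, and the remaining treated libraries lay inside the control range. The log2 fold change of H2-Ab1 was 1.29 ± 0.82 (SE; edgeR adjusted p = 0.754) and 0.12 without that library. H2-Aa (chromosome 17, 34282744 to 34287823, minus strand), the alpha chain that pairs with it, had 9.11, 6.16 and 18.2 CPM in controls and 10.7, 12.4 and 61.2 CPM in treated ganglia. Its log2 fold change was 1.32 ± 0.86 (SE; edgeR adjusted p = 0.756), or 0.062 without treated replicate 3. H2-Eb1 (chromosome 17, 34305867 to 34316674, plus strand), the beta chain of I-E, had 13.4, 7.16 and 20.5 CPM in controls and 11.6, 16.3 and 67.3 CPM in treated libraries. For this gene too, a single treated library exceeded the controls, with a log2 fold change of 1.21 ± 0.81 (SE; edgeR adjusted p = 0.761) that became 0.047 without it. H2-Ea, the I-E alpha chain that C57BL/6 mice are known not to make, held 2 counts over all libraries.

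The proportions of these genes to each other varied less than their level. The ratio of Cd74 to H2-Ab1 counts lay between 1.80 and 2.33 over the 6 libraries, that of H2-Aa to H2-Ab1 between 0.526 and 0.738, and that of H2-Eb1 to H2-Ab1 between 0.671 and 0.928. Over the same libraries the summed class II level ran from 51.5 to 408.9 CPM, a 7.93-fold range. Cd74, H2-Aa, H2-Ab1 and H2-Eb1 made up 83.7% to 96.3% of that sum. As log2 differences from each gene's own mean control level, Cd74, H2-Aa, H2-Ab1, H2-Eb1 and H2-DMb1 lay between 2.42 and 2.59 in treated replicate 3 and between 0.57 and 0.85 in control replicate 3.

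The chains of H2-DM, the peptide exchanger, did not move alike. H2-DMb1 (chromosome 17, 34153072 to 34160230, plus strand) had 1.15, 1.31 and 2.30 CPM in controls and 1.01, 1.88 and 8.99 CPM in treated libraries. Treated replicate 3 was again far above the rest, and the log2 fold change of 1.29 ± 0.81 (SE; edgeR adjusted p = 0.749) turned to -0.12 without it. H2-DMa (chromosome 17, 34119541 to 34139101, plus strand) had 6.53, 6.00 and 6.08 CPM in controls and 4.82, 6.44 and 5.17 CPM in treated libraries, a log2 fold change of -0.18 ± 0.21 (SE; edgeR adjusted p = 0.843), or -0.14 without treated replicate 3. Treated replicates 1 and 3 lay below all controls for H2-DMa. The ratio of H2-DMa to H2-DMb1 counts was 5.70, 4.59 and 2.65 in controls and 4.76, 3.43 and 0.575 in treated libraries. On the annotation, 360 exonic bases of H2-DMa (10.4% of its exons) overlap Brd2 on the opposite strand, a widely expressed chromatin reader with 32162 counts over the libraries. The counting's strand setting is not given in the sources used here, so H2-DMa counts are uncertain. H2-DMb1 shares 13.7% of the 100-base windows of its longest transcript with H2-DMb2, which was left untested with 41 counts in all.

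**Figure D2:**
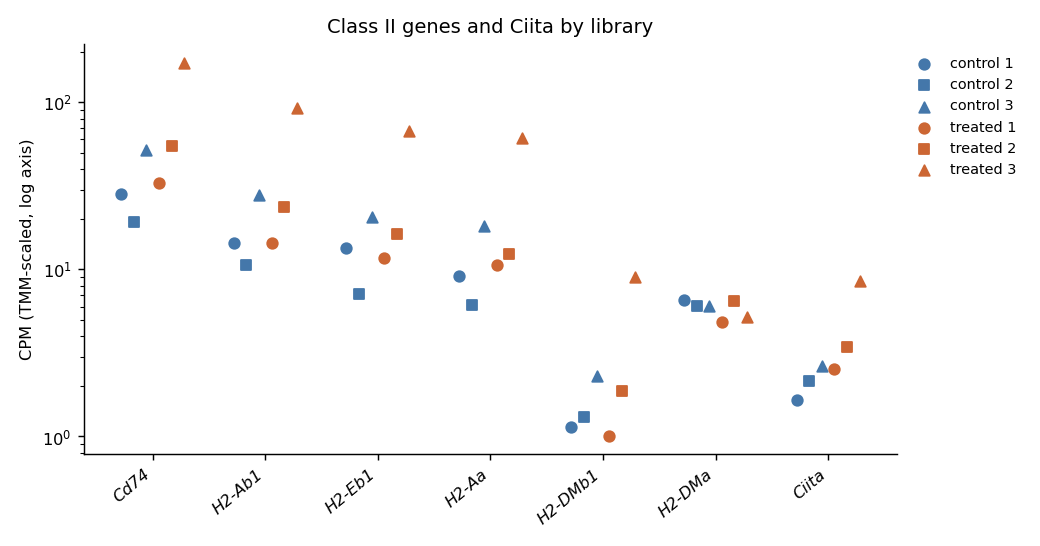
CPM of class II genes and Ciita in each library on a log axis, with controls in blue, treated in orange and the replicate number as the marker shape. Treated replicate 3 is the highest library for every gene drawn except H2-DMa, where it lies at 5.17 CPM below all 3 controls.

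Ciita (chromosome 16, 10480059 to 10528418, plus strand), the class II coactivator, had low levels with the same leaning. It had 29, 56 and 39 counts in controls and 85, 98 and 107 in treated libraries, or 1.66, 2.15 and 2.64 CPM against 2.53, 3.41 and 8.51 CPM. Treated replicate 1 lay below control replicate 3, so the groups overlapped. The log2 fold change was 1.14 ± 0.49 (SE; edgeR adjusted p = 0.737) and 0.47 without treated replicate 3. Its exons share 329 bases with Dexi on the opposite strand, and Dexi had a log2 fold change of -0.19. The ratio of Ciita to H2-Ab1 counts lay between 0.0921 and 0.202, at its lowest in treated replicate 3.

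Genes that work with class II were listed apart from the members: cathepsins, the factors that bind the X and Y boxes, and the ligases that remove class II from the surface. Of 15 on the list 14 were measured and tested. There were 7 log2 fold changes above 0 and 7 below, the median was 0.0096 (0.051 without treated replicate 3), and 0 passed the edgeR threshold. Rfxap, a subunit of the RFX complex that binds the X box, had 37.1, 35.5 and 32.6 CPM in controls and 25.6, 26.5 and 16.9 CPM in treated libraries. All treated libraries lay below all controls, an order that 7.63% of all genes showed, and the log2 fold change was -0.61 ± 0.17 (SE; edgeR adjusted p = 0.655), or -0.43 without treated replicate 3. Nfya, a subunit of the factor that binds CCAAT, had the opposite order. Control libraries held it at 20.9 ± 0.337 CPM and treated ones at 25.4 ± 1.66 CPM (SD, n = 3), a log2 fold change of 0.28 ± 0.10 (SE; edgeR adjusted p = 0.727), or 0.22 without treated replicate 3. Ctsl, a lysosomal protease, had a log2 fold change of 0.37 ± 0.16 (SE; edgeR adjusted p = 0.737), or 0.24 without treated replicate 3, with treated replicate 2 inside the control range. Ctss, the protease of antigen-presenting cells that trims the invariant chain, is named after its values were seen. It had 101, 114 and 201 counts in controls and 237, 319 and 758 in treated libraries, and its log2 fold change of 1.72 ± 0.99 (SE; edgeR adjusted p = 0.746) became 0.22 without treated replicate 3.

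Markers of the cells that carry class II were measured beside it. For 14 macrophage markers the summed level was 99.7, 73.6 and 144 CPM in controls and 84.6, 160.5 and 526 CPM in treated libraries, a 7.14-fold range in which treated replicate 3 was again the highest. The ratio of summed class II to summed macrophage marker CPM lay between 0.700 and 0.896 over the 6 libraries, at 0.774 ± 0.0979 in controls and 0.799 ± 0.0877 in treated ones (SD, n = 3). The log2 fold changes of all 14 macrophage markers lay above 0. Their median was 1.34 with all libraries and 0.20 without treated replicate 3, and none of the 14 was at 0 in a library. Adgre1, which encodes the macrophage surface protein F4/80, had a log2 fold change of 1.39 ± 0.55 (SE; edgeR adjusted p = 0.737), and Cd14, a co-receptor for bacterial lipopolysaccharide, had 1.79 ± 0.75 (SE; edgeR adjusted p = 0.737). Without treated replicate 3 these were 0.53 for Adgre1 and 0.54 for Cd14. The part of macrophage RNA in the class II values was not tested.

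Other presenting cells gave less signal. Of 9 dendritic cell markers 3 passed the filter. Their summed level was 27.4 to 30.4 CPM in controls and 29.6 to 49.9 CPM in treated libraries, and the ratio of class II to this sum ranged from 1.75 to 8.20. The markers differed in treated replicate 3. Xcr1, which marks conventional dendritic cells that cross-present, had 0 counts there, as did Ccr7, the receptor of migrating dendritic cells. Zbtb46, a transcription factor of conventional dendritic cells, was at its highest there (32.5 CPM, against 16.4 to 19.8 in the other libraries), as were Itgax (37 counts, at most 15 elsewhere), Clec10a (38 counts, at most 13 elsewhere) and, at 2.55 CPM, Siglech. Zbtb46 made up a large part of the dendritic cell sum in every library, so the ratio of class II to that sum depends largely on this gene. Of 7 B cell markers 1 passed the filter, and the sum ran from 1.08 to 2.703 CPM in controls and from 0.975 to 4.69 CPM in treated libraries. Ms4a1, which encodes the B cell surface protein CD20, was at 0 in treated replicate 3, while Cd79b had 36 counts there and at most 6 in any other library. T cell and natural killer cell markers summed to 2.37 to 3.58 CPM in controls and 2.98 to 6.05 CPM in treated libraries. Cd3e, an invariant part of the T cell receptor complex, had 3 counts over all 6 libraries, and Cd8a had 0 in treated replicate 3. Lck, a kinase of T cell signalling, and Cd4, which macrophages can also carry, were highest in treated replicate 3, Lck at 3.34 CPM (0.676 to 2.31 elsewhere) and Cd4 at 25 counts (at most 11 elsewhere).

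Treated replicate 3 was also the highest library for other cell types that a dissected ganglion can hold. Fat cell markers summed to 11.5 to 37.8 CPM in controls and 8.12 to 474 CPM in treated libraries, neutrophil markers to 1.62 to 11.7 and 2.08 to 39.5 CPM, and fibroblast markers to 658 to 1136 and 476 to 2138 CPM. In each of these lists the highest value was that of treated replicate 3. Endothelial markers summed to 160.0 to 186 CPM in controls and 159 to 206 CPM in treated libraries, and satellite glia markers to 2393 to 3308 and 2793 to 3581 CPM. Neuron markers summed to 4203 to 4518 CPM in controls and 3360 to 4522 CPM in treated libraries, with the lowest value in treated replicate 3. The median log2 fold changes were 3.57 for fat cell, 1.74 for neutrophil, 0.35 for fibroblast, 0.20 for endothelial, 0.28 for satellite glia and -0.096 for neuron markers. Without treated replicate 3 the same medians were 0.93, 0.27, -0.61, -0.066, 0.12 and -0.0087, so those of fibroblast and endothelial markers changed sign. The part of these cells in the members' values was not tested.

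**Figure D3:**
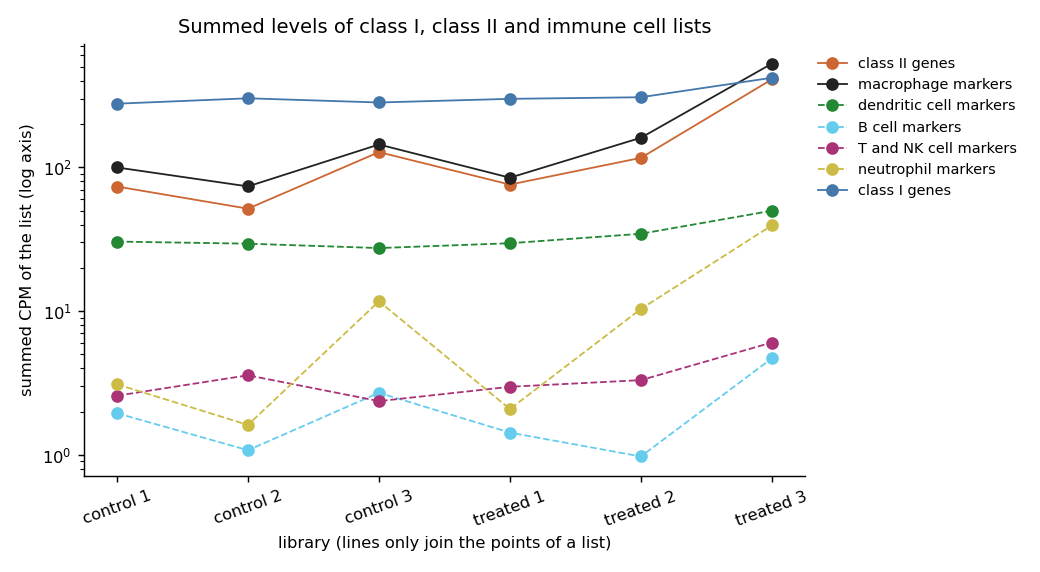
Summed CPM in each library, on a log axis, of the class II and class I members and of marker lists for macrophages, dendritic cells, B cells, T and natural killer cells and neutrophils. Class II and macrophage sums are both highest in treated replicate 3, at 408.9 and 526 CPM, while the class I sum stays between 277 and 419 CPM.

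Classical class I genes were abundant and varied little. The summed class I level ran from 277 to 302 CPM in controls and from 299 to 419 CPM in treated libraries, a 1.51-fold range over the 6 libraries, and B2m, H2-D1 and H2-K1 made up 80.3% to 82.7% of it. Of 14 tested class I genes 10 had log2 fold changes above 0, the median was 0.29 with all libraries and 0.019 without treated replicate 3, and 0 passed the edgeR threshold.

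B2m (chromosome 2, 122147686 to 122153083, plus strand), the light chain that all class I molecules share, had 58.6, 66.5 and 64.7 CPM in controls and 69.8, 65.0 and 96.5 CPM in treated libraries. Its log2 fold change was 0.28 ± 0.15 (SE; edgeR adjusted p = 0.742), or 0.092 without treated replicate 3. Treated replicate 2 lay inside the control range. H2-D1 (chromosome 17, 35262730 to 35267499, plus strand), a classical heavy chain, had 109.2, 112.2 and 106.3 CPM in controls and 110.9, 118.0 and 154.8 CPM in treated libraries. H2-K1 (chromosome 17, 33996017 to 34000347, minus strand), the other classical heavy chain, had 57.2, 68.9 and 59.1 CPM in controls and 62.3, 70.7 and 85.6 CPM in treated libraries. In both heavy chains treated replicate 3 was the highest and treated replicate 1 lay inside the control range. The log2 fold changes were 0.23 ± 0.13 (SE; edgeR adjusted p = 0.742) for H2-D1 and 0.24 ± 0.14 (SE; edgeR adjusted p = 0.742) for H2-K1, and without treated replicate 3 they were 0.067 and 0.11. The ratio of H2-D1 to B2m counts lay between 1.59 and 1.86, and that of H2-K1 to B2m between 0.887 and 1.09, ranges of 1.17-fold and 1.23-fold over the libraries.

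Nonclassical class I genes, whose products are less variable between mice and often have narrower tasks, divided by how treated replicate 3 stood. H2-T23, which encodes Qa-1 and presents leader peptides of other class I chains to natural killer cell receptors, had 8.9995, 8.73 and 9.33 CPM in controls and 8.03, 8.22 and 17.9 CPM in treated libraries. H2-T24 had 2.01, 1.77 and 1.89 CPM in controls and 0.982, 1.88 and 7.64 CPM in treated libraries. Treated replicate 3 was the only treated library above the controls for H2-T23, and for H2-T24 the rest of the treated group lay inside or below the control range. The log2 fold changes of 0.32 ± 0.32 for H2-T23 and 0.85 ± 0.72 for H2-T24 (SE; edgeR adjusted p = 0.816 and 0.786) turned to -0.15 and -0.40 without that library.

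H2-T22, a ligand of some gamma delta T cells, had 19.9, 18.3 and 20.9 CPM in controls and 18.0, 16.6 and 21.95 CPM in treated libraries, with overlapping groups and a log2 fold change of -0.064 ± 0.14 (SE), or -0.18 without treated replicate 3. H2-M3, which presents formylated peptides, had 5.16, 5.27 and 4.05 CPM in controls and 4.61, 4.88 and 3.02 CPM in treated libraries, a log2 fold change of -0.20 ± 0.27 (SE). For H2-M3 treated replicate 3 was the lowest library, and the value without it was -0.030. H2-Q4 had 8.71, 14.2 and 11.1 CPM in controls and 12.7, 14.7 and 16.2 CPM in treated libraries, a log2 fold change of 0.35 ± 0.20 (SE), or 0.27 without treated replicate 3. H2-Q7, part of the Qa-2 family, had 0.803, 0.962 and 1.42 CPM in controls and 1.25, 1.25 and 2.94 CPM in treated libraries, and its neighbour H2-Q6 had 2.12, 2.31 and 0.811 against 1.34, 1.92 and 3.82 CPM. Treated replicate 3 was the highest library for H2-Q4, H2-Q6 and H2-Q7. The log2 fold changes were 0.75 ± 0.51 for H2-Q7 and 0.39 ± 0.55 for H2-Q6 (SE), against 0.25 and -0.13 without that library. H2-Q7 shares 13.5% of its 100-base windows with other genes and H2-Q6 shares 10.8%, so counts may be split between near copies. The same limit holds for H2-T22 (9.38%) and for H2-T10 (6.05%), whose shared windows recur in H2-T22. H2-T10 had 1.32, 0.577 and 0.946 CPM in controls and 1.40, 1.08 and 0.955 CPM in treated libraries, a log2 fold change of 0.30 ± 0.48 (SE), or 0.41 without treated replicate 3. The other tested genes, H2-M5 and H2-M11, stayed under 1 CPM on average, with log2 fold changes of -0.59 ± 0.87 and -0.42 ± 0.52 (SE), or -0.15 and -0.25 without treated replicate 3.

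**Figure D4:**
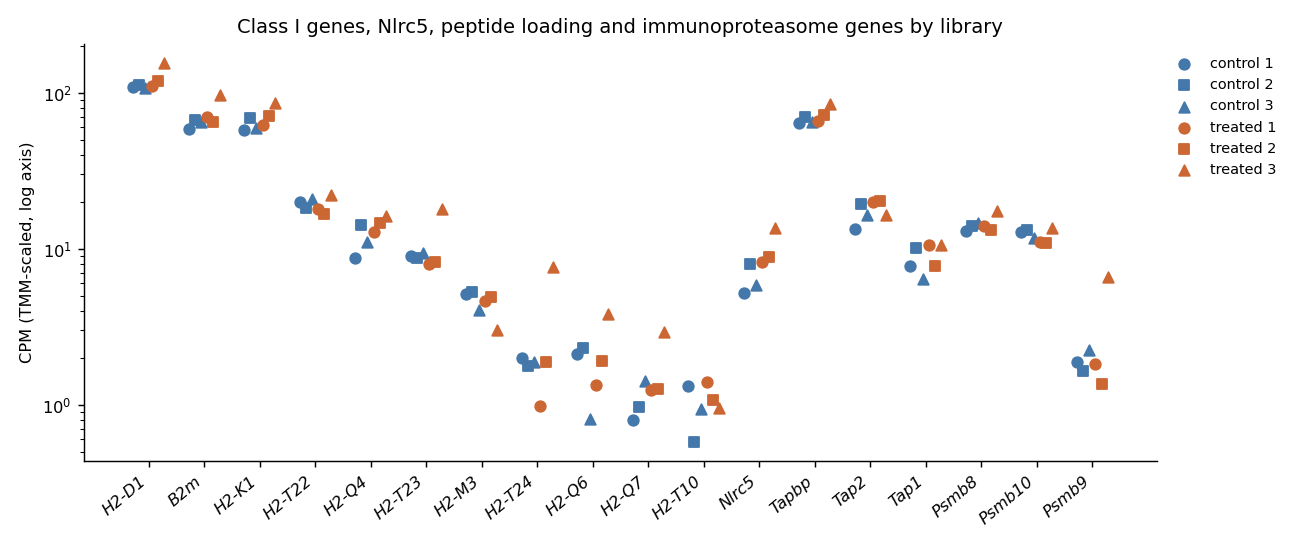
CPM of class I genes, Nlrc5, peptide loading genes and immunoproteasome subunits in each library on a log axis, with controls in blue, treated in orange and the replicate number as the marker shape. Most genes show nearly level points. Treated replicate 3 exceeds the next highest library by the widest margins for H2-T24, Psmb9, H2-Q7 and H2-T23, at 7.64, 6.60, 2.94 and 17.9 CPM. Smaller margins are seen for H2-Q6 and Nlrc5.

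Nlrc5 (chromosome 8, 94434356 to 94527272, plus strand), the class I coactivator, was the only tested member whose groups did not overlap, an order that 7.07% of all genes showed in that direction. It had 5.22, 7.92 and 5.88 CPM in controls and 8.24, 8.85 and 13.5 CPM in treated libraries. The gap was narrow, between 7.92 CPM in control replicate 2 and 8.24 CPM in treated replicate 1. The group means were 6.34 ± 1.41 CPM without and 10.2 ± 2.89 CPM with S961 (SD, n = 3). The log2 fold change was 0.67 ± 0.26 (SE; edgeR adjusted p = 0.737) and 0.42 without treated replicate 3. The exact permutation test, two-sided, gave p = 0.1, the smallest that 3 against 3 allows. Any gene whose groups do not overlap reaches that value, so it adds nothing to the order. Relative to B2m, Nlrc5 counts were 0.0997 ± 0.0169 without and 0.131 ± 0.0118 with S961 (SD, n = 3), and treated replicate 1 lay below control replicate 2. Its exons share 78 bases with 9330175E14Rik on the opposite strand, a gene with 50 counts over the libraries.

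For the peptide loading genes the groups overlapped. Tapbp, which encodes tapasin, had 64.1, 69.2 and 65.1 CPM in controls and 65.3, 71.4 and 84.2 CPM in treated libraries, a log2 fold change of 0.15 ± 0.11 (SE). Tap1, one chain of the peptide transporter, had 7.80, 10.1 and 6.42 CPM in controls and 10.5, 7.73 and 10.5 CPM in treated libraries, a log2 fold change of 0.24 ± 0.23 (SE). Tap2, the other chain, had 13.5, 19.5 and 16.5 CPM in controls and 20.03, 20.1 and 16.5 CPM in treated libraries, a log2 fold change of 0.20 ± 0.17 (SE). Without treated replicate 3 the log2 fold changes were 0.046 for Tapbp, 0.16 for Tap1 and 0.28 for Tap2. Tap1 and Psmb9 share 212 exonic bases on opposite strands, so their reads cannot be told apart there without a known strand setting. Tapbp shares 149 exonic bases (4.11% of its exons) with Zbtb22, a gene with 2720 counts over the libraries. That overlap is on the same strand, so a strand setting would not separate the reads.

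The immunoproteasome subunits replace the constitutive catalytic subunits where interferon acts or in immune cells. Psmb8 had 12.9, 13.9 and 14.6 CPM in controls and 14.0, 13.2 and 17.5 CPM in treated libraries, and Psmb10 had 12.8, 13.2 and 11.8 against 11.04, 10.9 and 13.5 CPM. Psmb9 had 1.89, 1.65 and 2.23 CPM in controls and 1.81, 1.36 and 6.60 CPM in treated libraries. All 3 subunits were highest in treated replicate 3, by the widest margin for Psmb9. The log2 fold changes were 0.11 ± 0.15 for Psmb8, -0.095 ± 0.15 for Psmb10 and 0.73 ± 0.61 for Psmb9 (SE), and without treated replicate 3 they were -0.021, -0.20 and -0.27. Per kilobase, Psmb9 stood at 0.0119, 0.0108 and 0.0146 of its constitutive counterpart Psmb6 in controls and at 0.0126, 0.0101 and 0.0399 in treated libraries. Psmb8 stood at 0.111 to 0.158 of Psmb5 in controls and at 0.144 to 0.240 in treated libraries, and Psmb10 at 0.456 to 0.539 and 0.416 to 0.573 of Psmb7. The constitutive subunits were thus the more abundant form in every library, and Psmb9 was the scarcest of the 3 against its counterpart.

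H2-Q10 (chromosome 17, 35470089 to 35474563, plus strand), a class I gene known for a secreted product made in the liver, had the largest log2 fold change of the tested members. It had 11, 3 and 7 counts in controls and 211, 17 and 67 in treated libraries, or 0.631, 0.115 and 0.473 CPM against 6.28, 0.592 and 5.33 CPM. Treated replicates 1 and 3 lay far above the controls, and treated replicate 2 lay below control replicate 1. edgeR gave a log2 fold change of 3.36 ± 0.97 (SE; adjusted p = 0.660), which ranged from 2.84 to 3.87 with each library left out in turn and was 3.16 without treated replicate 3. DESeq2 gave a log2 fold change of 3.35 at an adjusted p of 0.0363, and over all alternatives the adjusted p ran from 0.0363 to 0.995. H2-Q10 shares 8.80% of its 100-base windows with other genes, among them H2-Q7.

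Liver cell markers, listed after the values of H2-Q10 were seen, were also uneven between libraries. Their summed level was 21.9, 1.96 and 10.4 CPM in controls and 246, 3.38 and 25.3 CPM in treated libraries. Alb, which encodes serum albumin, had 223, 8 and 70 counts in controls and 5159, 16 and 113 in treated libraries. Treated replicate 1 was thus the highest library both for H2-Q10 and for the liver sum, and treated replicate 3 was second in both. For the liver sum, however, treated replicate 3 was near control replicate 1 (25.3 against 21.9 CPM). For H2-Q10 these 2 libraries lay far apart (5.33 against 0.631 CPM). The proportion was not fixed, since H2-Q10 CPM was 0.0288 to 0.0588 of the liver sum in controls and 0.0255, 0.175 and 0.211 of it in treated replicates 1, 2 and 3. The 7 tested liver markers all had log2 fold changes above 0, of median 3.11 (3.56 without treated replicate 3), and 0 passed the edgeR threshold. The part of liver-type RNA in the H2-Q10 values was not tested.

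**Figure D5:**
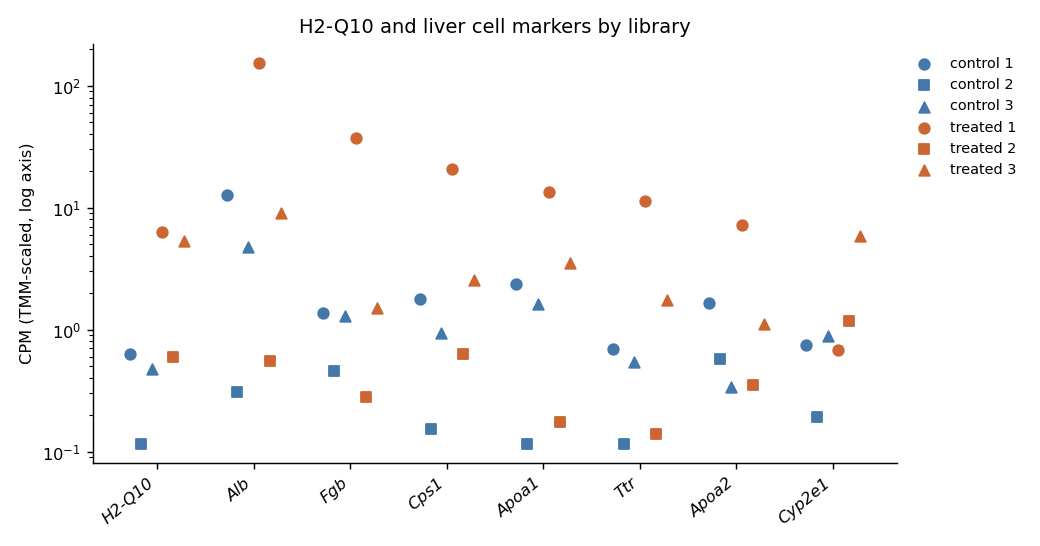
CPM of H2-Q10 and of 7 liver cell markers in each library on a log axis, with controls in blue, treated in orange and the replicate number as the marker shape. H2-Q10 reaches 6.28 and 5.33 CPM in treated replicates 1 and 3, and treated replicate 1 is the highest library for every liver marker drawn except Cyp2e1.

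The 18 members left untested held at most 41 counts each over the 6 libraries. They were 13 class I genes with 0 to 28 counts and 5 class II genes with 2 to 41. The class II genes among them were H2-Oa and H2-Ob, the chains of H2-DO that restrain H2-DM mainly in B cells, with 11 and 28 counts, together with H2-DMb2, H2-Eb2 and H2-Ea. The 6 H2-M10 genes, known from vomeronasal sensory neurons, held 29 counts together. H2-M10.1 had 0 of 132682270 counts, which allows a level of up to 0.0226 CPM (3 counts, for counting error only). H2-Ke6 had 10.0, 10.0 and 9.39 CPM in controls and 8.84, 11.8 and 13.8 CPM in treated libraries, a log2 fold change of 0.22 ± 0.19 (SE), or 0.072 without treated replicate 3, and shares 92.0% of its windows with the overlapping gene model Gm20427.

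Further genes of the pathway were described from lists. Of 12 class I processing partners, which include peptide-trimming enzymes, chaperones and constitutive proteasome subunits, 6 had log2 fold changes above 0 and 6 below, the median was 0.012 (-0.035 without treated replicate 3) and 0 passed the edgeR threshold. Erap1, which trims peptides in the endoplasmic reticulum, had 11.3, 12.2 and 11.015 CPM in controls and 15.1, 12.5 and 16.6 CPM in treated libraries. Psmb5, a constitutive proteasome subunit, had 30.8, 28.003 and 24.6 CPM in controls and 24.1, 24.3 and 19.4 CPM in treated libraries. Neither gene had overlapping groups, an order that 7.07% of all genes showed upward and 7.63% downward, with log2 fold changes of 0.35 ± 0.15 for Erap1 and -0.29 ± 0.14 for Psmb5 (SE; edgeR adjusted p = 0.737 for both), or 0.26 and -0.20 without treated replicate 3.

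Interferon gamma is the best known inducer of these genes, and its transcript was at the edge of detection. Ifng had 2, 0 and 1 counts in controls and 2, 1 and 0 in treated libraries and was not tested. Of the other 10 genes of its pathway 7 had log2 fold changes above 0 and 3 below, with a median of 0.11 (0.14 without treated replicate 3), and 0 passed the edgeR threshold. Jak1, a kinase of the receptor, lay lower in all treated libraries than in all controls, an order that 7.63% of all genes showed. Its log2 fold change was -0.57 ± 0.28, and Irf8, a factor of the myeloid lineage, had 1.21 ± 0.62 (SE; edgeR adjusted p = 0.742 for both). Without treated replicate 3 these were -0.28 and 0.15. Of 7 costimulation genes, which give T cells their second signal, 4 were tested. Their log2 fold changes all lay above 0, with medians of 0.28 with and 0.16 without treated replicate 3, and 0 passed the edgeR threshold. Among them Icosl had 0.51 ± 0.29 and Cd86, which is carried by activated presenting cells, had 1.06 ± 0.82 (SE), or 0.38 and 0.27 without treated replicate 3. The others lay near 0, Cd40 at 0.049 ± 1.02 and Cd274 at 0.029 ± 0.18 (SE). Cd40 turned to -0.67 without treated replicate 3.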

How the data were processed

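Total RNA of about 6 ng per sample was sequenced at 100 bases after a strand-specific library preparation, per the labels. The deposited values are counts, raw exonic reads per gene in each library. The submitters' processing notes name bcl2fastq 2.20, the aligner STAR 2.7.7a, edgeR, DESeq2 and the build mm10. How reads were counted, with which annotation and with what strand setting, is not given in the sources used here. Between 46.6% and 52.3% of reads overlapped a gene, and precision is limited by 3 libraries per group. Of 32719 genes 32663 matched GENCODE M21 (GRCm38), which gave coordinates and exon lengths. Values per kilobase use the union of a gene's exons.

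Counts were tested here with edgeR 4.0.16 under R 4.3.3: filterByExpr with a minimum count of 10, TMM scaling, a robust quasi-likelihood F test and Benjamini-Hochberg adjustment over 16019 genes at 0.05. The SE is the size of the log2 fold change divided by the square root of F. Log2 levels used a prior count of 2. Exact permutation tests are two-sided. Sequence sharing was counted over 100-base windows of each gene's longest transcript. Alternatives were scaling by DESeq2 size factors or the upper quartile, no filter or at least 5 CPM in 3 libraries, a replicate block, limma-voom (limma 3.58.1), DESeq2 1.42.0, a threshold of 0.1 and leaving out each library.

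The members and lists were chosen with earlier results of these data known. The liver markers, constitutive proteasome subunits and overlapping genes were added after values were seen. Values in each library are given for members of at least 1 CPM on average. From each list the 3 tested genes with the smallest p were to be named; some of these, chiefly from lists of other cell types, are covered by the list's sum or median only. Same-numbered control and treated libraries were not treated as pairs.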

Additional observations from a re-analysis of the deposited data

How the results depend on the processing

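No member passed an adjusted p of 0.05 with edgeR in any run with 1 library left out (0 to 0 members), nor with any other alternative apart from the DESeq2 Wald test, which called 1 member, H2-Q10. Over all genes the count of calls, 0, became 26 with no filter, 89 with DESeq2, 1 with the replicate block, and 0 to 9 with each library left out (7 when treated replicate 1 was dropped and 9 when treated replicate 3 was). The replicate block called 0 members. Deviations of same-numbered libraries had correlations of -0.0033, 0.422 and 0.311, and control replicate 1 correlated best with treated replicate 3 (0.119), so the numbers were not taken to pair the samples. The median log2 fold change of class I genes was 0.15 with limma-voom and 0.019 to 0.33 with each library left out, and that of class II genes 0.77 with limma-voom, 0.95 with the replicate block and 0.054 to 1.71 with each library left out. Outside those runs, the values at a threshold of 0.1 are those of the main fit, so their direction could not change. With them counted, 220 values of single members kept direction and call. H2-T24 turned to -0.061 with limma-voom, and the cause was not tested. With each library left out, 166 of the values kept both and 7 turned, each without treated replicate 3 apart from H2-T22: H2-T22 (-0.18 to 0.0079), H2-Q6 (-0.13 to 0.67), H2-T23 (-0.15 to 0.50), H2-T24 (-0.40 to 1.29), H2-DMb1 (-0.12 to 1.74), Psmb8 (-0.021 to 0.17) and Psmb9 (-0.27 to 1.09). Members under about 2 CPM rest on few counts in each library, which limits what could be detected.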
